A study of Rattus norvegicus with 12 samples.

Results

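The proteasome genes of the rat basolateral amygdala, an almond-shaped forebrain nucleus that links sensory cues and foods to their emotional value, were compared between rats with a history of sucrose snacks and control rats. Members were taken by symbol: a probe set was included where the array annotation gave it exactly 1 gene symbol and that symbol began with Psma, Psmb, Psmc, Psmd or Psme. This gave 55 of the 31099 probe sets on the array, which stand for 41 of the 14217 genes named by a probe set with 1 symbol. The 20S core, the barrel that cuts proteins, was read by 18 probe sets of 16 genes, and the regulatory particles that bind its ends were read by 31 probe sets of 20 genes. The prefix also took in 4 probe sets of 3 assembly chaperones (Psmd5, Psmd9 and Psmd10) and 2 probe sets of proteins that are not subunits (Psmc3ip and Psme3ip1), and these 6 were kept apart from both classes. RefSeq lists 48 protein-coding rat genes with these prefixes, so that 7 of them (Psma8, Psmb11, Psmb3l1, Psmb3l2, Psmb6, Psmb6l1 and Psme3) were not analysed here.

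Tissue came from male Long-Evans rats, an outbred strain, aged 2 to 3 months, which were housed singly with chow and water always at hand. The sucrose group was offered up to 4 mL of a 30% sucrose solution 2 times daily for 14 days, and the control group was offered extra bottles of water on the same schedule. The protocol text of the control samples repeats the sucrose treatment, whereas their titles and source names give a water control, and the groups follow the titles. The basolateral amygdala of both sides was dissected on the morning of day 15. Each array held RNA pooled from 2 rats of 1 group, with 6 arrays for sucrose and 6 for control, so the replicate is the pool. Every value below is a log2 ratio: the log2 of an array's deposited value, which is scaled to the mean of the 6 control arrays for that probe set. A value of 0 is the control mean, and neither how strongly a gene was expressed nor whether 1 subunit was more abundant than another can be read from it. For the same reason the marker genes of the amygdala could not show that the labelled tissue was present.

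The proteasome degrades proteins that carry ubiquitin chains. Its 20S core is a stack of rings, with alpha subunits forming the outer gates and beta subunits the inner chamber, where Psmb5, Psmb6 and Psmb7 carry the constitutive cutting sites. The 19S particle that caps the core has a base of ATPases (Psmc) that unfold the substrate and a lid (Psmd) that removes the ubiquitin. Interferon induces alternative beta subunits (Psmb8, Psmb9 and Psmb10), which replace the constitutive ones in the immunoproteasome, and the Psme1 and Psme2 activator, while the transcription factor Nrf1 (Nfe2l1) drives the constitutive genes together when proteasome activity falls short. In neurons the proteasome turns over synaptic proteins.

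The promoters of 3 interferon-induced members and of 1 constitutive cutting subunit are shown so that the interferon-type letters of the induced genes can be read beside the promoter of a constitutive one. RefSeq gives a window of 300 bases, 250 before and 50 after the start of the gene, for 37 of the 41 genes on build GRCr8. Capitals mark 2 copies of GAAA with any 2 bases between them, on either strand (TTTC on the other), the core of an interferon-stimulated response element, in Psmb8, Psmb10 and Psme2, and TGACNNNGC on either strand, the core of an antioxidant response element, in Psmb5. The windows lie on the minus strand at chr20:4656982-4657281 for Psmb8, chr19:50743243-50743542 for Psmb10, chr15:33052702-33053001 for Psme2 and chr15:32047330-32047629 for Psmb5.
Psmb8: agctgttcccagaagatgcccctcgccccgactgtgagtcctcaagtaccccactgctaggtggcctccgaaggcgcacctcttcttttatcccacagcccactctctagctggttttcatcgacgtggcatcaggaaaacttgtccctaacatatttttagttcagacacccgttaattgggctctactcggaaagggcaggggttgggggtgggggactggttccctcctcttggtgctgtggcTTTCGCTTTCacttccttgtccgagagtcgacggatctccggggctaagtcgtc
Psmb10: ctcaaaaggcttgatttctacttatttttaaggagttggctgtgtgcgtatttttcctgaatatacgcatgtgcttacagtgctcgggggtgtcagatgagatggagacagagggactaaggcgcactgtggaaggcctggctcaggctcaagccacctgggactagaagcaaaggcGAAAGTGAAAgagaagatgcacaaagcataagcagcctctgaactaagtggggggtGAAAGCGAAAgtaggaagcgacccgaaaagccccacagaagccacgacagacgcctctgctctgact
Psme2: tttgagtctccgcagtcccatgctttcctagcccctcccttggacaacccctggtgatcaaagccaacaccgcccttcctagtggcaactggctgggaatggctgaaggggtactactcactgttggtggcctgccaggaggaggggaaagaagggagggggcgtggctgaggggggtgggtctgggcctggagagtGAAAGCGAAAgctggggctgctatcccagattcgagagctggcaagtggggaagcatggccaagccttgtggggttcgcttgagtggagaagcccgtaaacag
Psmb5: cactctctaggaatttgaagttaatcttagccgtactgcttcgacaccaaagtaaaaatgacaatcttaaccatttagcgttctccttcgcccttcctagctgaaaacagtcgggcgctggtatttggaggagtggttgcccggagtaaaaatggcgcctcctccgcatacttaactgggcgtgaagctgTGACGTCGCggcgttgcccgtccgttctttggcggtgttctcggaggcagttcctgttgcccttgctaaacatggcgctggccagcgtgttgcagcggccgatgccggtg
The interferon-type letters were in the windows of 6 of the 37 genes (Psma4, Psmb3, Psmb8, Psmb10, Psmd7 and Psme2), or 16.2%, against 3.92% of the 33469 promoters in the table. Psmb8 held them across the gene start, beginning at base 247 of its window, Psmb10 held them at bases 178 and 234, and Psme2 at base 198. The windows of Psmb9 and Psme1, which interferon also induces, did not hold these letters. The antioxidant-type letters were in 7 of 37 windows (Psma3, Psmb2, Psmb5, Psmd1, Psmd3, Psmd9 and Psme4), or 18.9%, against 12.1% of all promoters. A CCAAT box (CCAAT or its reverse complement) was in 20 of 37, or 54.1%, against 37.5%, and the GC box letters GGGGCGGGG, on either strand, were in 4, or 10.8%, against 9.73%. Matches were counted per window whether or not motifs overlapped, so 1 window can hold several. Members were counted as genes, whereas the shares of all promoters count every promoter given, not only those of genes on the array. A match describes letters and not a site in use.

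No proteasome probe set passed a test of the difference between sucrose and control arrays. By limma's moderated test with Benjamini-Hochberg adjustment over 31042 probe sets, 0 of the 55 members passed an adjusted p of 0.05, as did 0% of all probe sets. At an unadjusted p under 0.05, 0 of 55 were higher in sucrose arrays, where 4.5% of all probe sets were, and 0 of 55 were lower, where 3.07% of all were (7.57% in either direction). No member had 6 sucrose arrays wholly above or below the 6 control arrays, a pattern that 0.425% of all probe sets showed (0.296% above and 0.129% below). The authors' deposited table held 145 probe sets, beside 31099 on the array, and 0 of the 55 members were among them. With so small a share of the array listed, this count says little about the members.

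The differences were also small. The median size of the log2 difference, whatever its sign, was 0.023 over the members and 0.037 over all probe sets. Of the members, 18 were on the higher side and 37 on the lower side, with a median difference of -0.010, beside -0.0054 and a higher side of 45.7% over all probe sets. This split rested on sucrose array 6: without it 29 were on the higher and 26 on the lower side. The 95% interval of the difference lay within 1.2-fold in either direction (0.263 on the log2 scale) for 54 of 55 members and for 89.7% of all probe sets. The exception was 1 of the 3 probe sets of Psmd14, whose interval reached 1.26-fold higher. These intervals rest on 6 arrays a group, and RNA from all cells of the dissected tissue was measured together, so fewer cells of a type and less RNA per cell cannot be told apart.

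**Figure D1:**
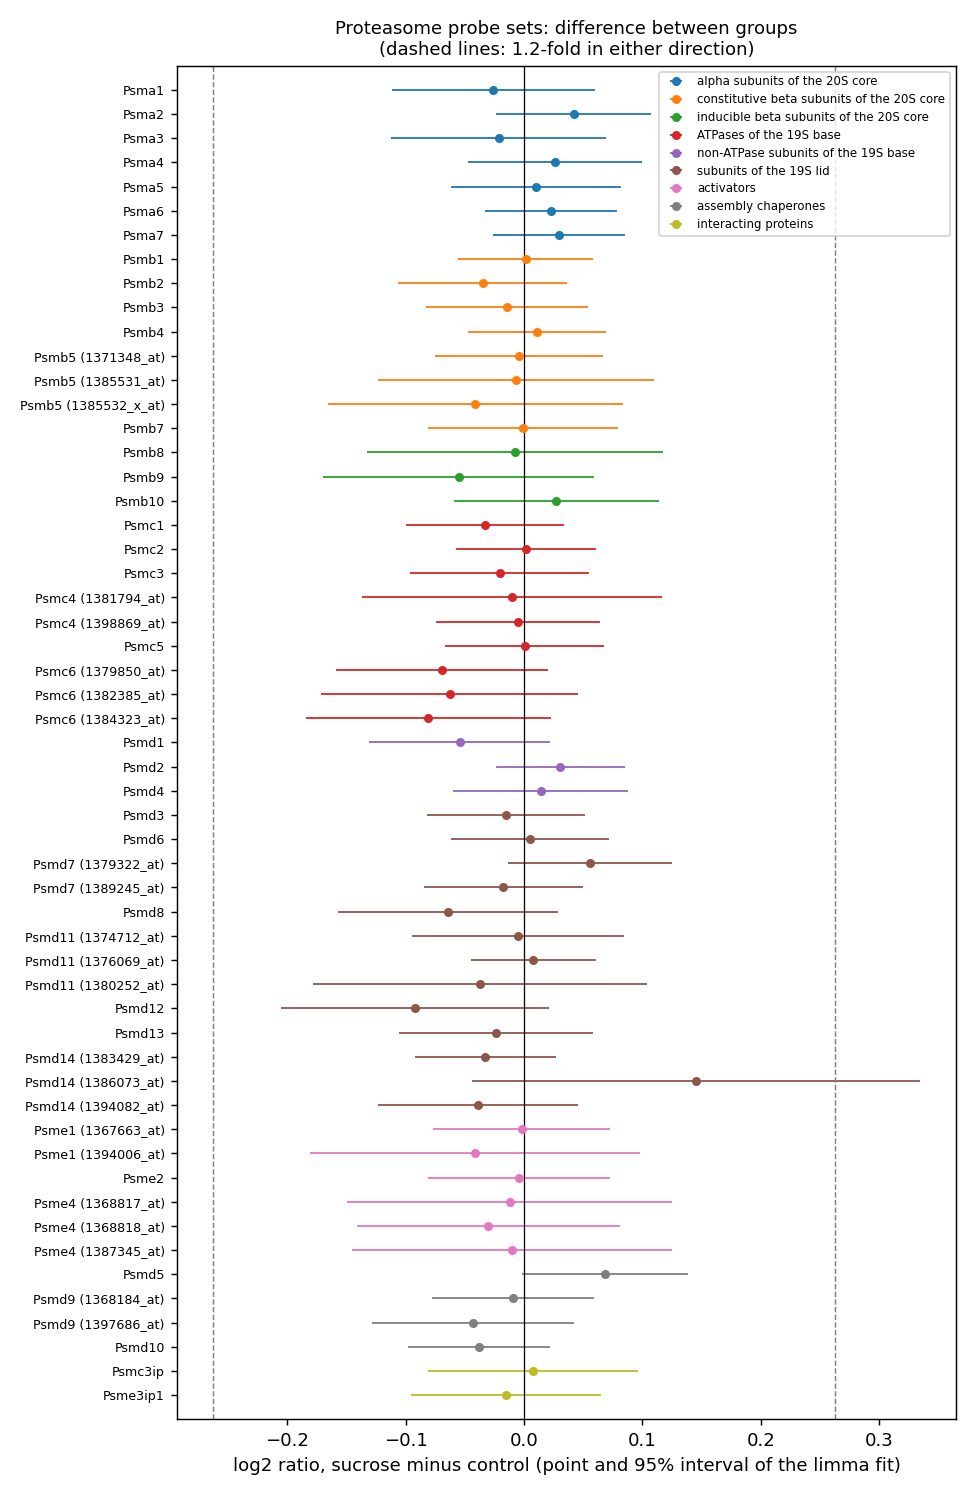
Log2 difference, sucrose minus control, of each of the 55 probe sets (points) with its 95% interval (bars) from the limma fit, coloured by class; dashed lines mark 1.2-fold in either direction. Every interval includes 0, and only 1386073_at of Psmd14 has an interval that crosses a dashed line.

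Some arrays stood apart in other measures. Sucrose array 1 had a mean log2 ratio of 1.72 over 4 choroid plexus genes, the highest spike-in signal (0.183) and the lowest contrast between 3' and 5' control probe sets (-0.137). Its mean over 5 striatal and central amygdala genes was -0.349, where the control arrays ran from -0.147 to 0.158. It was 0.172 over 5 pallial excitatory neuron genes (control arrays -0.061 to 0.046) and 0.174 over 7 astrocyte genes (control arrays -0.119 to 0.046). Sucrose array 5 had a mean of 0.364 over 8 oligodendrocyte genes, where the control arrays ran from -0.084 to 0.061. Over the same genes sucrose array 3 was the lowest sucrose array, at -0.146. Control array 5 had the lowest spike-in signal (-0.116) and the lowest means over 7 astrocyte genes (-0.119) and 6 endothelial genes (-0.095). Their part in the proteasome values was not tested.

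The alpha subunits, which form the outer rings and gate the core, gave 5 of 7 probe sets on the higher side, with a median difference of 0.023. Psma2 had a lowest, median and highest value of -0.015, 0.036 and 0.094 in sucrose arrays, against -0.047, 0.00030 and 0.066 in control arrays. The groups overlapped, although 5 of the 6 sucrose arrays lay above the control median. Its difference was 0.042 ± 0.030 (SE, n = 6 each), with an adjusted p of 0.81 by limma. Psma7 ran from -0.019 through 0.042 to 0.050 in sucrose arrays, against -0.020, -0.0044 and 0.027 in control arrays (difference 0.029 ± 0.026, adjusted p = 0.84 by limma). Psma6 ran from -0.024 through 0.025 to 0.050 in sucrose arrays, against -0.025, 0.0012 and 0.030 in control arrays (difference 0.023 ± 0.026, adjusted p = 0.88 by limma). In all 3 genes the one sucrose array below the control median was array 6. Psma6, Psma7 and Psma2 have 5, 3 and 2 pseudogenes in RefSeq that could share signal with their probe sets. The same limit holds for other members, since 16 of the 41 genes have pseudogenes there. Among these are Psmb3 (7), Psmc4 (3), Psme2 (3), Psmc6 (2), Psmd12 (1) and Psmd14 (1). Psma4 and Psma5 were also on the higher side (0.026 and 0.010), and Psma1 and Psma3 on the lower (-0.026 and -0.021).

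The constitutive beta subunits gave 2 of 8 probe sets on the higher side, and their median difference was -0.0054, while without sucrose array 6 it was 5 of 8 and 0.0077. Psmb5, which carries the chymotrypsin-like site, was read by 3 probe sets that all lay on the lower side, from -0.041 to -0.0041, although 1371348_at was at 0.013 without sucrose array 6 and 1385531_at at 0.025 without sucrose array 2. Its probe set 1385532_x_at ran from -0.107 through -0.051 to 0.051 in sucrose arrays, against -0.201, -0.047 and 0.163 in control arrays. Here the sucrose values all fell inside the control range, and the difference was -0.041 ± 0.058 (adjusted p = 0.92 by limma). Psmb2, a structural subunit, ran from -0.092 through -0.040 to 0.031 in sucrose arrays, against -0.081, 0.011 and 0.049 in control arrays (difference -0.035 ± 0.033, adjusted p = 0.86 by limma). Only 1 of its 6 sucrose arrays was above the control median. Psmb3 differed by -0.014 ± 0.032, and Psmb7, which carries the trypsin-like site, by -0.00064 ± 0.037. Psmb1 and Psmb4 differed by 0.0015 and 0.011.

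The inducible subunits gave 1 of 3 on the higher side, with a median difference of -0.0076. By class median their spread between pools was wider than that of the alpha and constitutive beta subunits. This did not hold for each subunit, since Psmb10 varied less than Psma3 and than 1385532_x_at of Psmb5. The median of the 3 inducible subunits on each array averaged -0.033 ± 0.062 in sucrose arrays and 0.0022 ± 0.073 in control arrays (SD, n = 6 each). Psmb8 ran from -0.117 through -0.058 to 0.200 in sucrose arrays, against -0.151, -0.022 and 0.116 in control arrays, and its difference was -0.0076 ± 0.058 (adjusted p = 0.99 by limma). The highest of these 12 values was on sucrose array 5, the array with the high oligodendrocyte genes. Without that array the difference was -0.050, and without control array 1, the highest control, it was 0.016. Psmb9 ran from -0.212 through -0.064 to 0.068 in sucrose arrays, against -0.090, -0.032 and 0.135 in control arrays (difference -0.055 ± 0.053, adjusted p = 0.86 by limma), the largest difference in size in the core. Without sucrose array 6 it was -0.024 and without control array 1 it was -0.028. Psmb10 ran from -0.050 through 0.030 to 0.153 in sucrose arrays, against -0.074, 0.021 and 0.063 in control arrays (difference 0.027 ± 0.040, adjusted p = 0.92 by limma). Without sucrose array 2, its highest value, the difference was 0.0019, without control array 3 it was 0.013 and without control array 5 it was 0.013. In all 3 the groups overlapped over most of their range.

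Genes of interferon signalling and antigen presentation gave the setting of these subunits. On GRCr8 the protein-coding genes Tap2, Psmb8, Tap1 and Psmb9 follow each other on chromosome 20, where Tap1 and Tap2 build the pump that carries proteasome-cut peptides to MHC class I. Of the 16 probe sets of this list (11 of its 12 genes were measured), 1 was higher and 1 lower at an unadjusted p under 0.05, and 0 passed the adjusted threshold, beside 4.5% higher and 3.07% lower over all probe sets. The probe sets of Tap1 differed by -0.086 and 0.010, and that of Tap2 by -0.029. Irf7, a transcription factor of the interferon response that was picked out here after its values were seen, ran from -0.468 through -0.364 to -0.163 in sucrose arrays, against -0.348, -0.029 and 0.322 in control arrays. Its difference was -0.309 ± 0.107 with an adjusted p of 0.53 by limma. Nlrc5, the 1 probe set of the list that was higher at that unadjusted p, differed by 0.081 ± 0.030 (adjusted p = 0.57 by limma). By sign alone 10 probe sets of the list lay on the higher side and 6 on the lower. Of 16 microglial probe sets 4 were lower at an unadjusted p under 0.05 (C1qb, C1qc, Cd68 and Ptprc) and 0 were higher, beside 3.07% lower and 4.5% higher over all probe sets. By sign alone 7 of the 16 lay on the higher side and 9 on the lower, and the second probe set of Ptprc differed by -0.022. The mean of the 12 microglial genes ran from -0.060 to -0.0085 in sucrose arrays and from -0.061 to 0.031 in control arrays. Their part in the values of the inducible subunits was not tested.

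The ATPases of the 19S base, which unfold the substrate and feed it into the core, gave 2 of 9 probe sets on the higher side and a median difference of -0.021. Without control array 3 it was 4 of 9 and -0.0097. Psmc6 had the lowest values, and its 3 probe sets lay on the same side, at -0.069, -0.063 and -0.081. Its probe set 1384323_at ran from -0.220 through -0.043 to 0.013 in sucrose arrays, against -0.140, 0.019 and 0.049 in control arrays. No sucrose array was above the control median, but control array 6, at -0.140, lay below all but 2 of them. The difference was -0.081 ± 0.048, with an adjusted p of 0.76 by limma. Across the 12 arrays, after the group means were removed, the 3 probe sets of Psmc6 correlated at 0.386 to 0.865, which describes these arrays. Psmc1 differed by -0.033 ± 0.031 and Psmc3 by -0.021 ± 0.035, while Psmc2, Psmc4 and Psmc5 were between -0.010 and 0.0014. In the other base subunits, Psmd1, a scaffold, differed by -0.055 (-0.031 without sucrose array 1), Psmd2, a scaffold that also receives ubiquitin shuttles, by 0.031, and Psmd4, a ubiquitin receptor, by 0.014.

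The lid, which holds the deubiquitinase Psmd14, gave 4 of 13 probe sets on the higher side, with a median difference of -0.017. Psmd12, a lid scaffold subunit, had the lowest difference of any member. It ran from -0.263 through -0.068 to 0.012 in sucrose arrays, against -0.196, 0.038 and 0.060 in control arrays. All 6 sucrose arrays were below the control median. Control array 6, at -0.196, lay below 5 of the sucrose arrays, and sucrose array 4, at 0.012, lay above control array 5, at -0.0022. With all arrays the difference was -0.092 ± 0.053 (unadjusted p = 0.104 and adjusted p = 0.74 by limma). Without control array 6 it was -0.131, with an unadjusted p of 0.0124 and an adjusted p of 0.58 by limma. Control array 6 was singled out by its low value in this probe set, so this unadjusted p is no separate support. The same array was the low control in Psmc6 (1384323_at), where the difference without it was -0.109 with an adjusted p of 0.64 by limma. Without sucrose array 5, the lowest sucrose array in both probe sets, the differences were -0.058 for Psmd12 and -0.053 for Psmc6 (1384323_at). Psmd7, a partner of Psmd14 in the lid, was read by 2 probe sets that differed in sign, at 0.056 ± 0.032 and -0.017 ± 0.031. The first, 1379322_at, ran from 0.0011 through 0.045 to 0.113 in sucrose arrays, against -0.051, 0.0035 and 0.058 in control arrays (adjusted p = 0.74 by limma).

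The highest difference of any member came from 1 probe set of Psmd14. Its probe set 1386073_at ran from -0.068 through 0.077 to 0.509 in sucrose arrays, against -0.200, 0.0013 and 0.169 in control arrays, with a difference of 0.146 ± 0.088 (adjusted p = 0.76 by limma). The value of 0.509 was on sucrose array 1, and without that array the difference was 0.072. The other 2 probe sets of Psmd14 had differences of -0.033 and -0.039, on the opposite side. Of the 9 genes with several probe sets, 6 had them all on 1 side and 3 did not (Psmd7, Psmd11 and Psmd14).

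**Figure D2:**
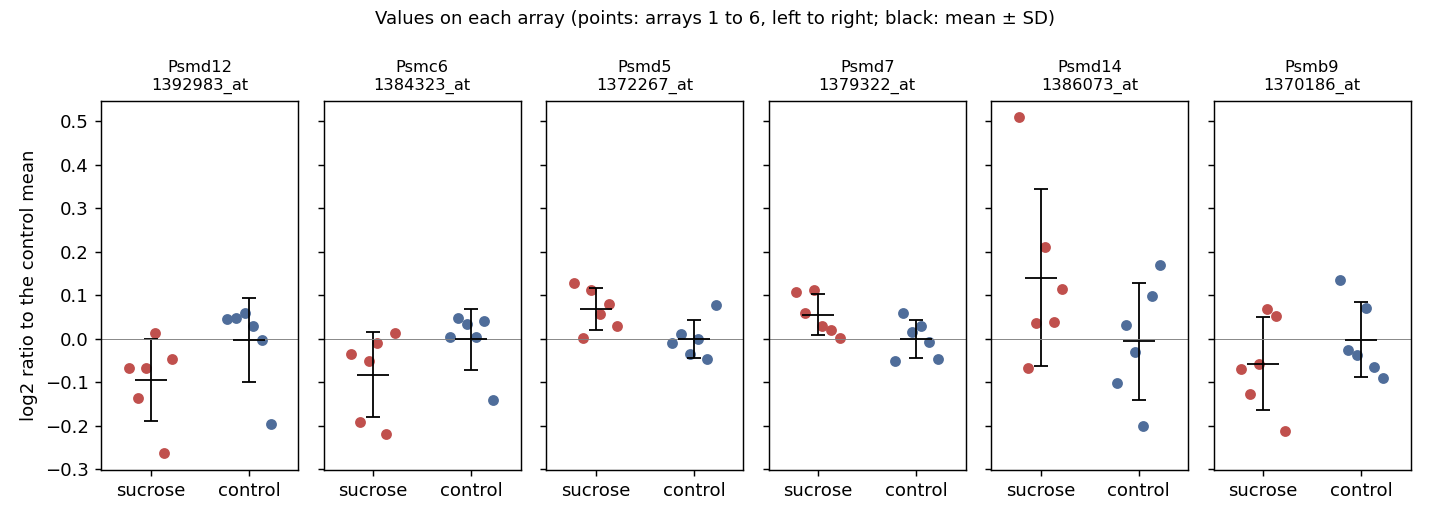
Log2 ratio to the control mean on each array for 6 probe sets, with sucrose arrays in red on the left and control arrays in blue on the right of each panel; points are arrays 1 to 6 from left to right and black marks are the mean ± SD (n = 6 each). Control array 6 is the low control point in Psmd12 (-0.196) and Psmc6 (-0.140), and sucrose array 1 is the high point in Psmd14 (0.509).

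The activators, which open the core without using ATP, had 0 of 6 probe sets on the higher side, but the differences were close to 0, with a median of -0.011, and without sucrose array 6 4 of the 6 were on the higher side. Psme2, a subunit of the interferon-induced ring, ran from -0.097 through 0.019 to 0.050 in sucrose arrays, against -0.073, 0.024 and 0.039 in control arrays (difference -0.0040 ± 0.036, adjusted p = 0.99 by limma). Its partner Psme1 was read by 2 probe sets, at -0.0019 and -0.041 ± 0.065, which correlated at -0.456 across the arrays. Psme4, the activator PA200 of nuclear proteasomes, had 3 probe sets on the lower side, from -0.030 to -0.010. These differences rested on single arrays: without sucrose array 5 they were -0.053, -0.060 and -0.060, and without sucrose array 6 they were 0.0075, -0.0028 and 0.0044. Without control array 4 they were 0.031, -0.011 and 0.024. All 3 were highest among the sucrose arrays on array 5, at 0.188, 0.116 and 0.237, the array with the high oligodendrocyte genes. Among the control arrays all 3 were highest on array 4, at 0.211, 0.093 and 0.165, where the mean over the oligodendrocyte genes was -0.038. The part of cell makeup in these values was not tested.

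The assembly chaperones come off before the finished particle works. Psmd5, a chaperone of the 19S base, had the lowest p of any member. Its values ran from 0.00087 through 0.069 to 0.129 in sucrose arrays, against -0.047, -0.0051 and 0.078 in control arrays. All 6 sucrose arrays were above the control median, and control array 6, at 0.078, was the one control array that reached into the upper part of the sucrose range. The difference was 0.069 ± 0.033 (unadjusted p = 0.0542 and adjusted p = 0.67 by limma). Psmd10, the chaperone also called gankyrin, ran from -0.070 through -0.049 to 0.013 in sucrose arrays, against -0.032, -0.0019 and 0.055 in control arrays (difference -0.038 ± 0.028, adjusted p = 0.81 by limma). Psmd9 gave -0.0095 and -0.043 ± 0.040 from 2 probe sets. The interacting proteins Psmc3ip, a meiotic recombination factor, and Psme3ip1 differed by 0.0075 ± 0.041 and -0.016 ± 0.037.

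Core and regulatory probe sets were then set side by side. The median difference was -0.0024 over the 18 core probe sets and -0.015 over the 31 regulatory ones, and -0.0054 over all probe sets. On each array, the median of the core probe sets averaged 0.0017 ± 0.030 in sucrose arrays and -0.00060 ± 0.020 in control arrays (SD, n = 6 each). For the regulatory probe sets it averaged -0.013 ± 0.019 in sucrose arrays and 0.0029 ± 0.017 in control arrays. The core median minus the regulatory median, taken within each array, averaged 0.015 ± 0.015 in sucrose arrays, from -0.0012 to 0.035, and -0.0035 ± 0.017 in control arrays, from -0.029 to 0.010. The ranges of both groups overlapped. No test was made of these medians, since the members were chosen with earlier results of these data known. Without sucrose array 6 the core median was 0.013 and the regulatory median -0.0028.

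Sucrose array 6 had the lowest and control array 5 the highest median, both for core and for regulatory probe sets. Array 6 of the sucrose group held the lowest of the 12 values for 15 of 55 members, or 27.3%, where it held the lowest for 8.42% of all probe sets. Its core median was -0.047 and its regulatory median -0.046. Control array 5 held the highest value for 17 of 55 members, or 30.9%, against 15.7% of all probe sets, with a core median of 0.037 and a regulatory median of 0.027. The core and regulatory medians were thus low together on sucrose array 6 and high together on control array 5, but not every class followed. On control array 5 the median was -0.074 for the inducible subunits, -0.0097 for the non-ATPase base subunits and 9.3e-05 for the activators. On sucrose array 6 the ATPase median was -0.0089, the highest of the sucrose arrays.

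**Figure D3:**
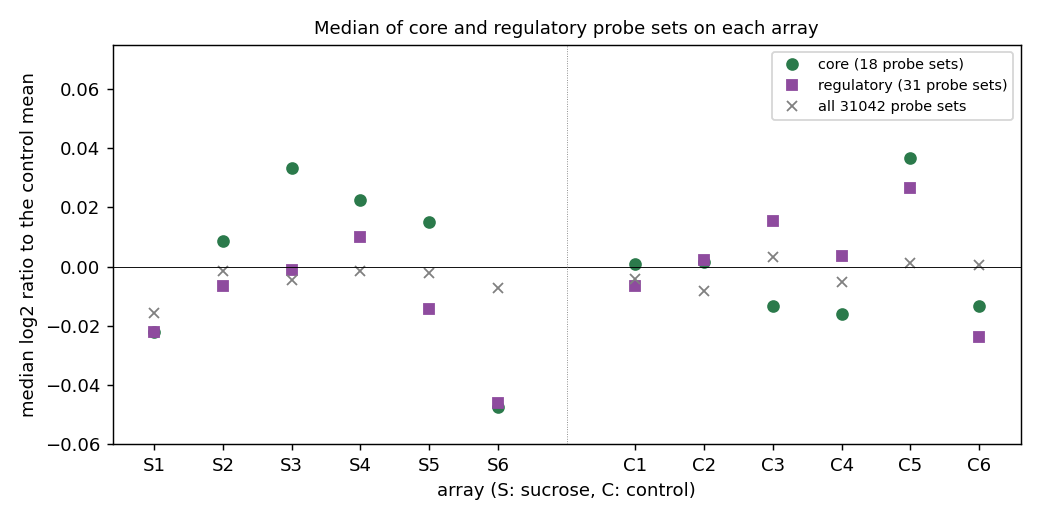
Median log2 ratio to the control mean of the core (circles), regulatory (squares) and all tested probe sets (crosses) on each array, sucrose arrays S1 to S6 on the left and control arrays C1 to C6 on the right. Both classes are low on S6 (-0.047 and -0.046) and high on C5 (0.037 and 0.027), and the ranges of the groups overlap.

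The spread of the proteasome probe sets between pools was narrow. The residual SD, the spread of log2 ratios around the group means, had a median of 0.055 over the members and 0.085 over all probe sets. It lay below the median of all probe sets for 42 of 55 members and below their lower quartile, 0.062, for 32. Cytosolic ribosomal protein probe sets (67) had a median of 0.053, and oxidative phosphorylation probe sets (91) had 0.039. Among the members it ran from 0.016 in Psmd11 (1376069_at) to 0.172 in Psmd14 (1386073_at). By class median the inducible subunits (0.097) and the activators (0.106) were above the alpha subunits (0.049), constitutive beta subunits (0.048) and ATPases (0.054). Not every member followed. Psmb10 was at 0.067, Psme2 at 0.055 and 1 probe set of Psme1 (1367663_at) at 0.053, while 1385532_x_at of Psmb5 reached 0.108. Since the deposited ratios keep no level, dim probe sets could not be set apart, and whether the spread goes with signal level was not tested.

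**Figure D4:**
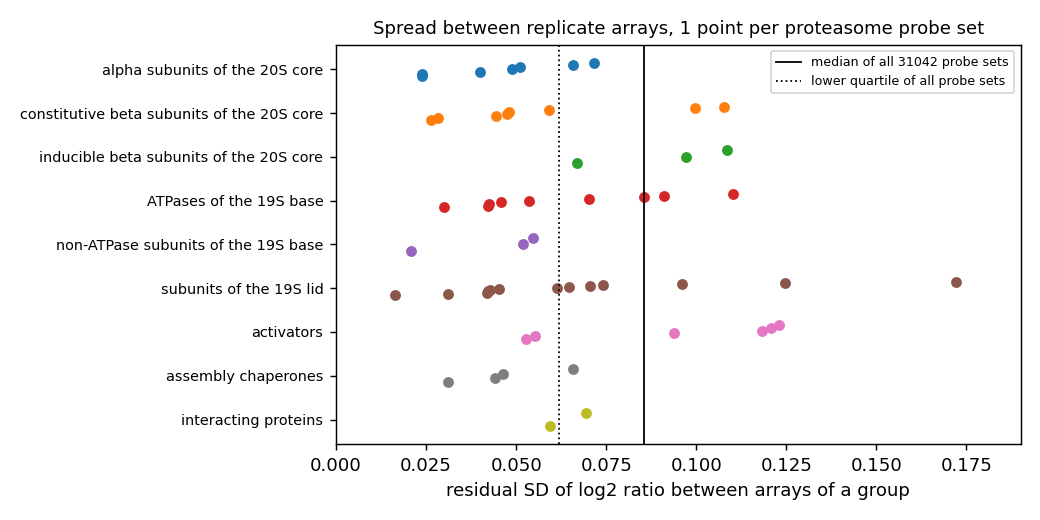
Residual SD of the log2 ratio between arrays of a group, 1 point per proteasome probe set, by class. The solid line is the median of all 31042 probe sets (0.085) and the dotted line their lower quartile (0.062), with 32 members to the left of the dotted line.

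Members also varied together to a small extent. After group means were removed, the median correlation across the 12 arrays between probe sets of different genes was 0.176 within the core (150 pairs), 0.051 within the regulatory probe sets (450 pairs) and 0.127 between both classes (558 pairs). It was 0.178 within the ribosomal and 0.183 within the oxidative phosphorylation probe sets, and 0.0040 over all probe sets with 1 symbol. These values are a description, since all pairs share the same 12 arrays and their RNA quality.

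Other genes that build, regulate or feed the proteasome were read by 58 probe sets of 31 genes, out of 37 listed. Of these probe sets 24 were on the higher and 34 on the lower side, with 4 higher and 3 lower at an unadjusted p under 0.05 and 0 past the adjusted threshold. Over all probe sets 4.5% were higher and 3.07% lower at that p. The lowest p was that of Nploc4, which helps the ATPase p97 pull ubiquitinated proteins out of membranes. Its probe set 1374996_at ran from -0.131 through -0.104 to -0.045 in sucrose arrays, against -0.052, -0.0034 and 0.055 in control arrays. The groups overlapped only at their ends, and the difference was -0.095 ± 0.029 (unadjusted p = 0.00522 and adjusted p = 0.44 by limma), while its second probe set differed by -0.0076. Adrm1, a ubiquitin receptor that docks on Psmd1, differed by -0.076 ± 0.033 (adjusted p = 0.62 by limma), and the shuttle Ubqln4 by -0.076 ± 0.030 (adjusted p = 0.59 by limma). Both lay on the same side as Nploc4.

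Among genes on the higher side, Ecpas, a scaffold that binds the proteasome, was read by 6 probe sets. The highest, 1395353_at, ran from 0.032 through 0.196 to 0.498 in sucrose arrays, against -0.122, -0.0015 and 0.143 in control arrays, with a difference of 0.213 ± 0.070 (adjusted p = 0.49 by limma). A second one differed by 0.175 ± 0.063 (adjusted p = 0.56 by limma), and the other 4 lay between -0.041 and 0.052, so the probe sets of this gene disagreed. Uba6, an enzyme that activates ubiquitin, had all 4 probe sets on the higher side, at 0.069 ± 0.032 (adjusted p = 0.65 by limma) for the one of lowest p. The ubiquitin ligase Ube3a had 2 probe sets on the higher and 2 on the lower side, the one of lowest p at 0.135 ± 0.060 (adjusted p = 0.63 by limma). Nfe2l1, the regulator of the constitutive proteasome genes, gave -0.070, 0.034 and 0.017, and the assembly factors Pomp, Psmg1, Psmg2, Psmg3 and Psmg4 lay between -0.047 and 0.020.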

How the data were processed

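RNA from 12 pools of basolateral amygdala was hybridised to rat expression arrays with 31099 probe sets, and groups were taken from the sample titles. Per the submitters' processing notes the signals were summarised with RMA (robust multi-array average), and the authors deposited linear ratios: each control mean is 1 to within 2.02e-07, so that level, depth and detection are not recoverable and no dim probe set was removed. The authors' deposited table also gives p-values (0.000225 to 0.05). Array medians of the ratio were 0.989 to 1.00. The log2 of each ratio was fitted in R 4.3.3 with limma 3.58.1 (lmFit and eBayes, two-sided, no covariate), adjusted over the 31042 probe sets left after 57 manufacturer controls, and tested on simulated data. Of these 20826 had 1 symbol, 436 several and 9780 none. By gene identifier 20758 matched RefSeq GRCr8, and 0 symbols changed. The 6 probe sets that pair a proteasome symbol with another gene were left out. Named genes were the 3 of lowest p in each subunit class, all inducible subunits, activators, chaperones and interacting proteins, and the 6 other pathway genes of lowest p. The members and lists were chosen with earlier results of these data known. Cell marker, interferon and pathway lists were compared as counts and array means. Replicate numbers did not pair the arrays: 1 of 6 same-numbered pairs correlated above 0.1 (-0.150 to 0.194). No 2 arrays were identical. The fit was repeated with median-centred arrays, with quantile normalization applied again, with the replicate block, with 2 other variance priors, with array weights, RNA integrity and spike-in covariates, with only probe sets of 1 symbol, with other class and gene rules, and without each array in turn.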

Additional observations from a re-analysis of the deposited data

Results flagged for a closer look

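In 84 groups of 6 arrays examined, 7 had 1 array set far from its other 5 by Dixon's test, where chance gives about 4.2 (1 in 20). Psmc6 (1384323_at) had -0.140 on control array 6, with the other 5 control arrays between 0.0037 and 0.049. Psmd12 had -0.196 on the same array, with the others between -0.0022 and 0.060. Psme4 (1368818_at) had -0.158 on control array 5, with the others between 0.0098 and 0.093. Uba6 (1391236_at) had -0.0886 on control array 1, with the others between -0.0018 and 0.038. The median of the core probe sets was 0.0368 on control array 5, with the others between -0.016 and 0.0016. The median of the non-ATPase base subunits was -0.0754 on sucrose array 6, with the others between -0.0024 and 0.027. The median of the assembly chaperones was -0.0453 on sucrose array 1, with the others between -0.018 and -0.0032.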

How the results depend on the processing

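The count of members past an adjusted p of 0.05 was 0 under all 21 alternatives, and the limma fit with the replicate number as a replicate block also gave 0, with 0 higher and 0 lower at an unadjusted p under 0.05. The number higher at an unadjusted p under 0.05 became 1 (Psmd5) with arrays centred on their medians and 1 (Psmd5) with only probe sets with 1 symbol, and ran from 0 to 1 when single arrays were left out (Psmd5 without sucrose array 2, sucrose array 6 or control array 6). The number lower ran from 0 to 2: 1 (Psmc6, 1379850_at) without sucrose array 6 and 2 (Psmd12 and another probe set of Psmc6, 1384323_at) without control array 6. The share of all probe sets past that p was not counted under these alternatives. Leaving out arrays moved the core median over -0.012 to 0.013, the regulatory median over -0.024 to -0.0028 and their difference over 0.0085 to 0.022, and the other alternatives kept the difference between 0.013 and 0.022. Of 29 named probe sets 22 kept their sign throughout. The sign turned with the spike-in covariate in Psme1 (0.0119), Psmc3ip (-0.0119) and Psme3ip1 (0.00276), with the RNA integrity covariate in Psme2 (0.00313) and Psmc3ip (-0.000194), and with array weights in Psmc3ip (-0.00365) and Psme3ip1 (0.00274). It also turned when single arrays were left out in Psmb3 (-0.025 to 0.0030), Psmc3 (-0.037 to 0.0019), Psmb8 (-0.050 to 0.016), Psme2 (-0.018 to 0.015), Psmc3ip (-0.012 to 0.024) and Psme3ip1 (-0.033 to 0.0060). The cause was not tested. No named probe set reached an adjusted p below 0.332 (Nploc4) under any alternative. The number of arrays limits precision, the ratios keep no signal over background, and p-values set the group difference against the spread between pools.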

Other observations

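Over all probe sets 4.5% were higher and 3.07% lower at an unadjusted p under 0.05. Among marker genes of other cell types, at the same p by limma, oligodendrocyte genes gave 3 higher and 0 lower of 17 probe sets, astrocyte genes 2 higher and 0 lower of 14, and endothelial genes 1 higher and 2 lower of 10. Choroid plexus genes gave 0 of 4, pallial excitatory neuron genes 2 higher and 0 lower of 9, and striatal and central amygdala genes 0 of 8. Cytosolic ribosomal protein genes gave 2 higher and 1 lower of 67 probe sets, and oxidative phosphorylation genes 0 of 91. None of these lists held a probe set past an adjusted p of 0.05. By sign alone, the higher and lower sides held 16 and 1 oligodendrocyte, 12 and 2 astrocyte, and 6 and 4 endothelial probe sets. They held 4 and 0 for choroid plexus, 7 and 2 for pallial excitatory neuron, and 1 and 7 for striatal and central amygdala genes. For ribosomal protein genes the split was 42 and 25, and for oxidative phosphorylation genes 38 and 53. Over all probe sets 45.7% were on the higher side.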
